A study of Mus musculus with 14 samples.

Results

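Expression of 10 genes of the ATF4 pathway was examined in heart muscle cells in which the calcium release channel gene Ryr2 had been targeted. The genes were chosen by symbol and comprise the transcription factors Atf3, Atf4, Atf5, Ddit3, Cebpb and Cebpg and the effectors Trib3, Chac1, Sesn2 and Nupr1. All 10 were found among the 23337 genes of the count table, and all 10 passed the filter on low counts, as did 11170 genes in all. Both groups consisted of Rosa-Cas9GFP mice, whose name denotes a Cas9 and GFP allele at Rosa. KO mice received AAV-Ryr2gRNA, an adeno-associated virus named for a guide RNA against Ryr2, on postnatal day 1, and Ctrl mice received AAV-Cre at the same age. Cardiomyocytes were isolated from the heart at 4 weeks of age by Langendorff perfusion and sorted by fluorescence, and polyadenylated RNA was sequenced in 7 libraries per group. The labels name Cre for the Ctrl virus and the guide for the KO virus, so a response to the guide and one to the virus it came in cannot be told apart, and they do not say which cells the promoter of either virus is active in. They do not state that the libraries of a group came from separate animals, so the p-values describe the spread between these libraries, which may be partly technical.

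The integrated stress response begins when one of several kinases phosphorylates the translation factor eIF2, which slows protein synthesis as a whole but raises translation of the Atf4 mRNA through its upstream open reading frames. The ATF4 protein pairs with other basic leucine zipper (bZIP) proteins, among them CEBPG and CEBPB, and switches on genes for amino acid supply as well as further regulators such as Atf3, Atf5, Ddit3, Trib3, Chac1, Sesn2 and Nupr1. Because much of the control of ATF4 is translational, its mRNA level need not follow its activity.

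Total counts ranged from 5689335 to 13165662 per library. Ryr2 had between 225 and 371 CPM (counts scaled to library size) in KO libraries, against 602 to 763 CPM in Ctrl libraries (log2 fold change -1.13, edgeR adjusted p = 3.3e-07). All 10 listed cardiomyocyte markers, Ryr2 among them, were present, with a summed level of 88141 to 117369 CPM in KO and 112574 to 131993 CPM in Ctrl libraries, and 7 of the 10 were called lower. The 4 libraries numbered 7 to 10 in their library names, here called index 7 to 10 (KO4, KO5, Ctrl4 and Ctrl5), stood apart on the second principal component, which held 24.2% of the variance, so values within them and within the other 10 libraries are given beside the pooled ones. They held more signal from other cells, with summed fibroblast markers of 1138 and 1252 CPM in KO4 and KO5, against 167 to 382 CPM in the other KO libraries, and of 607 and 617 CPM in Ctrl4 and Ctrl5, against 190 to 244 CPM in the other Ctrl libraries. Macrophage markers summed to 68.7 to 484 CPM in KO libraries, against 27.6 to 132 CPM in Ctrl libraries, with 4 of 11 tested markers called higher and 0 lower. Pericyte and smooth muscle markers summed to 1415 to 2253 CPM in KO libraries, against 990 to 1289 CPM in Ctrl libraries, without overlap. Acta2 held most of the counts of this list (102532 over all libraries), so the sum chiefly follows Acta2. Of 8 tested, Acta2, Cspg4 and Tagln were higher and Abcc9 was lower. Rgs5 (log2 0.06), Pdgfrb (-0.11), Kcnj8 (-0.24) and Myh11 (0.33) did not pass. The part of these cells in any result was not tested. In sorted but bulk samples, fewer cells of a type and less RNA per cell cannot be told apart.

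Of the 10 genes, 8 were higher in KO cardiomyocytes, 0 were lower and 2, Atf3 and Cebpb, did not pass the test. The background for that count is 14.5% of all 11170 tested genes called higher and 13.7% called lower, at an adjusted p under 0.05. The median log2 fold change was 1.75 over the 10 genes and 0.01 over all tested genes. In 5 of the 10 genes (Atf5, Cebpg, Trib3, Sesn2 and Nupr1) every KO library lay above every Ctrl library, which held for 5.84% of all tested genes. The increases covered a wide range of size. Trib3 was 79.2-fold higher, Nupr1 30.3-fold, Chac1 12.4-fold, Atf5 7.39-fold, Sesn2 5.14-fold and Cebpg 2.22-fold, whereas Atf4 was 1.53-fold and Ddit3 1.51-fold higher.

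**Figure D1:**
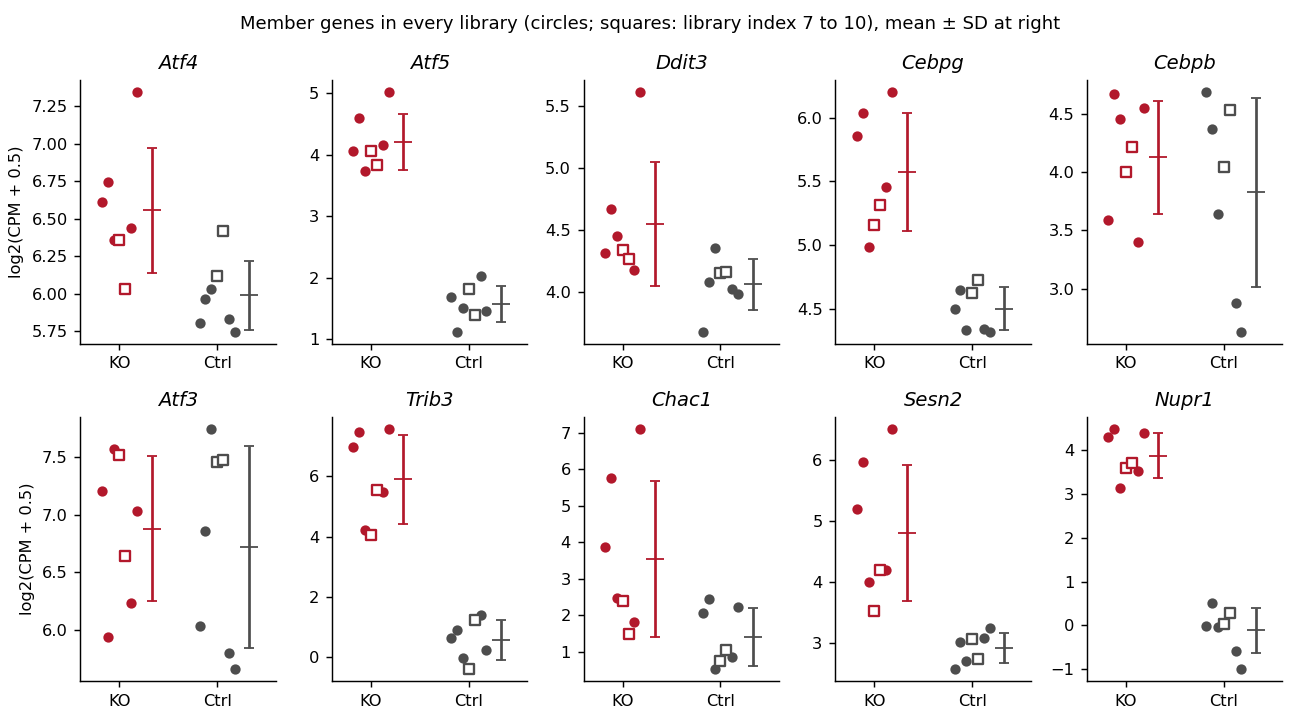
Levels of the 10 genes in each library, as log2(CPM + 0.5), with KO at the left and Ctrl at the right of each panel. Circles are single libraries, squares are the libraries of index 7 to 10, and the bars at the right of each group give mean ± SD of these log values (n = 7 each); Atf5, Cebpg, Trib3, Sesn2 and Nupr1 show no overlap between the groups, while Atf3 and Cebpb overlap throughout.

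ATF4 heterodimers are known to bind a composite C/EBP-ATF response element, and the promoters of the 10 genes were searched for it. The windows ran from 250 bases before to 50 bases after each annotated RefSeq start (GRCm38.p6), and all 10 genes had at least 1 window. The strict form TGATGNAAT, sought on both strands, occurred in 1 of the 10 genes, Nupr1, and in 1.08% of the 27025 genes with a promoter in the table. The looser form TGATGNAAN, which includes the strict one, occurred in 4 of the 10, Atf3, Trib3, Chac1 and Nupr1, and in 4.5% of all genes. The cAMP response element TGACGTCA occurred in 0 of the 10 and in 2.03% of all genes. A match of letters describes the sequence and is not a measured binding site, and the absence of a match says only that these letters are not in this window. The stretches around the 4 matches are shown because they are what the looser search found. They are written 5′ to 3′ on the strand of the gene, with the match in capitals. All 4 matches lie on the opposite strand to the gene, so the capitals are the reverse complement of the element. In Nupr1 and Atf3 the match lies 103 to 111 bases before the start and in Chac1 186 to 194 bases before it. In Trib3 it lies after the start, so that only a short stretch is given.
Nupr1 (chr7:126625523-126625631, minus strand): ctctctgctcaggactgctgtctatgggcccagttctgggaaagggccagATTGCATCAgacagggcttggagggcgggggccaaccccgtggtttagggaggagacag
Chac1 (chr2:119350998-119351106, plus strand): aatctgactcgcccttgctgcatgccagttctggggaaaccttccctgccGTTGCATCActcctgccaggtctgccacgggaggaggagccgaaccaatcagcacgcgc
Atf3 (chr1:191183386-191183494, minus strand): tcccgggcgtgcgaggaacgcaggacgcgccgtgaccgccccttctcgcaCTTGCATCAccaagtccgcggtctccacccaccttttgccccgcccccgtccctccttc
Trib3 (chr2:152344029-152344057, minus strand): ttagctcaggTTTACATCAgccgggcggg

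Among the transcription factors, Atf4 itself was modestly higher. Atf4 (chromosome 15, 80255184 to 80257541, plus strand, mm10, 1725 bp of exon) encodes the factor after which the pathway is named. Its lowest, median and highest levels were 64.9, 86.0 and 162 CPM in KO libraries, against 53.2, 61.9 and 85.1 CPM in Ctrl libraries. The groups overlapped, with 4 of 7 KO libraries above all Ctrl libraries. The log2 fold change was 0.61 (SE 0.165, edgeR adjusted p = 0.010). It was 0.88 (adjusted p = 0.0010) among the 10 libraries outside index 7 to 10, and -0.12 (adjusted p = 0.66) within index 7 to 10, where KO4 and KO5 had 81.5 and 64.9 CPM, against 69.0 and 85.1 CPM in Ctrl4 and Ctrl5. Without KO7, which had the highest level, it was 0.44 (adjusted p = 0.012).

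Atf5 (chromosome 7, 44812256 to 44816658, minus strand), a bZIP factor related to Atf4 and likewise controlled at the level of translation, had the largest log2 fold change of the 6 factors. Its levels were 12.7, 16.1 and 32.0 CPM (lowest, median and highest) in KO libraries, against 1.69, 2.36 and 3.57 CPM in Ctrl libraries. All 7 KO libraries lay above all Ctrl libraries. Its log2 fold change came to 2.88 with an SE of 0.224 (edgeR adjusted p = 1.1e-07), and to 2.47 within index 7 to 10 and 3.01 among the other libraries. Of its 1993 exonic bases, 82 are shared with Nup62-il4i1 and 64 with Nup62, both on the plus strand, and the library kit does not mark the strand. Nup62 had 44.8 CPM in KO and 51.2 CPM in Ctrl libraries. The share of Atf5 reads from either gene was not tested.

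Cebpg (chromosome 7, 35046422 to 35056566, minus strand), a bZIP partner that binds DNA together with ATF4, was also separated between the groups. It stood at 31.2, 43.4 and 73.1 CPM in KO libraries, against 19.5, 22.1 and 26.05 CPM in Ctrl libraries, as lowest, median and highest. This gave a log2 fold change of 1.15 with an SE of 0.172 (edgeR adjusted p = 9.5e-05). It was called within index 7 to 10 (0.54, adjusted p = 0.031) as well as among the other 10 libraries (1.36, adjusted p = 1.6e-04).

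Ddit3 (chromosome 10, 127290793 to 127296288, plus strand), which encodes CHOP, a factor linked to cell death under prolonged stress, differed little in most libraries. Its levels were 17.7, 19.8 and 48.6 CPM in KO libraries, against 12.3, 16.4 and 20.02 CPM in Ctrl libraries. KO7 alone held the value of 48.6 CPM, and the next KO library, KO2, had 25.0 CPM. Over all libraries the log2 fold change was 0.59 with an SE of 0.203 (edgeR adjusted p = 0.038), and it was 0.32 (adjusted p = 0.043) without KO7. The call was lost within index 7 to 10 (0.11, adjusted p = 0.73). It was also lost on leaving out any one of KO2, Ctrl1, Ctrl2, Ctrl4, Ctrl6 and Ctrl7 (adjusted p between 0.050 and 0.083). Of its 871 exonic bases, 68 overlap Mars, the methionyl-tRNA synthetase gene on the opposite strand, which was itself higher (181 CPM in KO and 87.4 CPM in Ctrl libraries, log2 1.05); the share of Ddit3 reads from Mars was not tested.

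The remaining factors, Atf3 and Cebpb, did not pass the test. Atf3 (chromosome 1, 191170297 to 191183333, minus strand) encodes a bZIP repressor and stress gene that is also induced quickly by tissue handling. It had 60.9, 130 and 190 CPM in KO libraries, against 50.1, 116 and 214 CPM in Ctrl libraries. Its log2 fold change was 0.05 (SE 0.337, adjusted p = 0.93), and the sign turned to -0.37 within index 7 to 10. The spread of its levels was wide in both groups, with a coefficient of variation of 40.1% in KO and 55.5% in Ctrl libraries. Cebpb (chromosome 2, 167688915 to 167690418, plus strand), a partner of ATF4 that inflammatory signals also induce, had 10.1, 18.002 and 24.9 CPM in KO libraries, against 5.70, 16.0 and 25.3 CPM in Ctrl libraries. Its log2 fold change was 0.18 (SE 0.294, adjusted p = 0.70). Both SE exceed the fold change itself, so a difference of either sign cannot be told apart from none. Of the 1504 exonic bases of Cebpb, 312 overlap Tmem189 on the other strand in GENCODE M21, and Tmem189 was not called (log2 -0.03).

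Immediate early genes, many of which rise when cells are isolated from tissue, were measured beside Atf3 and Cebpb. Of 18 tested genes of that list other than these, 3 were higher and 0 lower, with a median log2 fold change of 0.14. The background over all tested genes was 14.5% higher and 13.7% lower, so these counts are near or below it and are no result about the list. The 3 were Myc (2.98), Fosb (1.36) and Socs3 (0.87). The list's summed level was 1342 to 3230 CPM in KO and 1418 to 3143 CPM in Ctrl libraries. Across the 7 KO libraries Pearson's r between Atf3 and this sum on the log scale was 0.78 (exact permutation p = 0.052, adjusted p = 0.18, Spearman's rho 0.57, p = 0.20), and it was 0.14 without KO2 and KO6. Across the 7 Ctrl libraries r was 0.56 (exact permutation p = 0.19, adjusted p = 0.48, rho 0.36, p = 0.44), and it was -0.13 without Ctrl1 and Ctrl7. Both relations therefore rest on the libraries with a low sum.

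All 4 effectors were called higher, with log2 fold changes from 2.36 to 6.31. Trib3 (chromosome 2, 152337425 to 152344060, minus strand) encodes a pseudokinase that is known to hold back ATF4 activity. It had 16.1, 46.4 and 190 CPM in KO libraries, against 0.262, 1.07 and 2.11 CPM in Ctrl libraries. All KO libraries lay above all Ctrl libraries, and they formed a broad range, from KO4 (16.1 CPM) and KO3 (18.03 CPM) to KO2 (178 CPM) and KO7 (190 CPM). Trib3 thus had a log2 fold change of 6.31 with an SE of 0.710 (edgeR adjusted p = 6.5e-06), with 4.89 within index 7 to 10 and 6.60 among the other libraries.

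Nupr1 (chromosome 7, 126623246 to 126625470, minus strand) encodes a small stress-induced chromatin protein. It had 8.27, 12.7 and 21.97 CPM in KO libraries, against 0, 0.494 and 0.92 CPM in Ctrl libraries, where its counts were between 0 and 6 per library. Nupr1 had a log2 fold change of 4.92 with an SE of 0.343 (edgeR adjusted p = 3.4e-08). This was the smallest adjusted p of the 10 genes, and the KO libraries differed from each other by at most 2.66-fold.

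Sesn2 (chromosome 4, 132492807 to 132510456, minus strand) encodes sestrin 2, a leucine sensor that restrains mTORC1. It had 10.9, 17.9 and 90.5 CPM in KO libraries, against 5.43, 7.51 and 8.98 CPM in Ctrl libraries. The KO minimum lay only just above the Ctrl maximum. For Sesn2 the log2 fold change was 2.36 with an SE of 0.427 (edgeR adjusted p = 5.2e-04), with 1.01 (adjusted p = 0.034) within index 7 to 10 and 2.68 among the other libraries.

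Chac1 (chromosome 2, 119351242 to 119354327, plus strand), which encodes an enzyme that breaks down glutathione, was the most uneven of the 10 genes among KO libraries. It had 2.30, 5.02 and 136 CPM in KO libraries, against 0.946, 1.57 and 4.91 CPM in Ctrl libraries. KO5, KO6 and KO4 lay within the range of the Ctrl libraries, KO3 just above it, and KO1, KO2 and KO7 had 14.05, 53.5 and 136 CPM. Chac1 had a log2 fold change of 3.63 with an SE of 0.904 (edgeR adjusted p = 0.0061). It was 2.42 (adjusted p = 0.017) without KO7, and within index 7 to 10 the call was lost (1.27, adjusted p = 0.10).

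**Figure D2:**
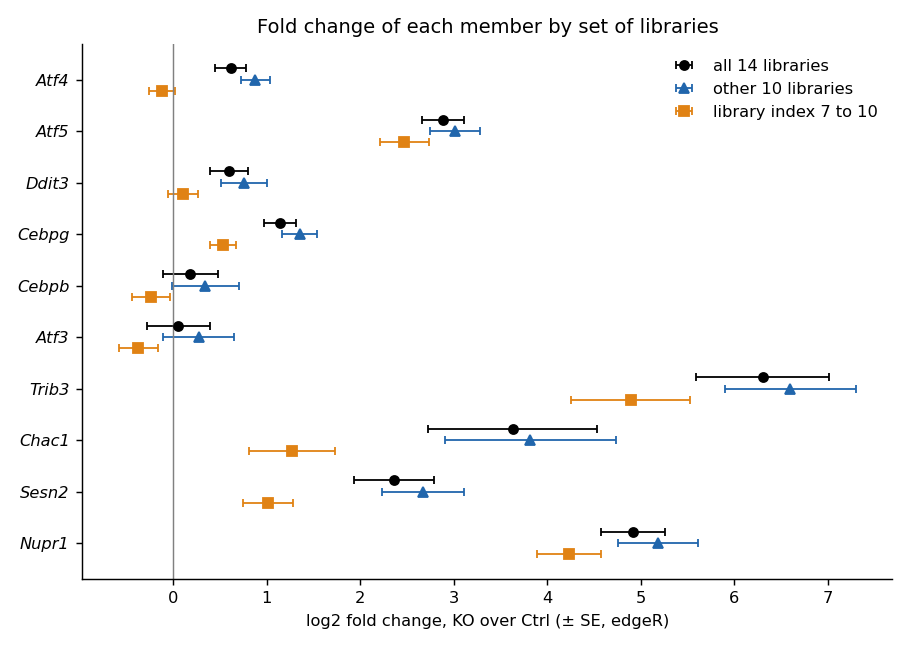
Log2 fold change of each gene, KO over Ctrl, with SE from edgeR, for all 14 libraries (black circles), the 10 libraries outside index 7 to 10 (blue triangles) and the 4 libraries of index 7 to 10 (orange squares). The orange value is the lowest for each of the 10 genes, with 1.27 against 3.82 in the other libraries for Chac1 and -0.12 against 0.88 for Atf4.

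Within library index 7 to 10, 5 of the 10 genes were called higher (Atf5, Cebpg, Trib3, Sesn2 and Nupr1), where 5.84% of 11798 tested genes were. Among the other 10 libraries 8 were called higher, where 12.5% of 11044 tested genes were. The difference between both sets of libraries in the KO effect was tested itself, as an interaction term over all genes. It was called for 0 of 11170 genes (0%) with edgeR and for 0 of 17090 with DESeq2, with 339 and 309 genes at an unadjusted p under 0.05. For each of the 10 genes the fold was lower within index 7 to 10. The difference was -0.96 for Atf4 (unadjusted p = 0.0043), -0.78 for Cebpg (unadjusted p = 0.031), -1.62 for Sesn2 (0.065) and -2.51 for Chac1 (0.32). None of these passed after adjustment.

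**Figure D3:**
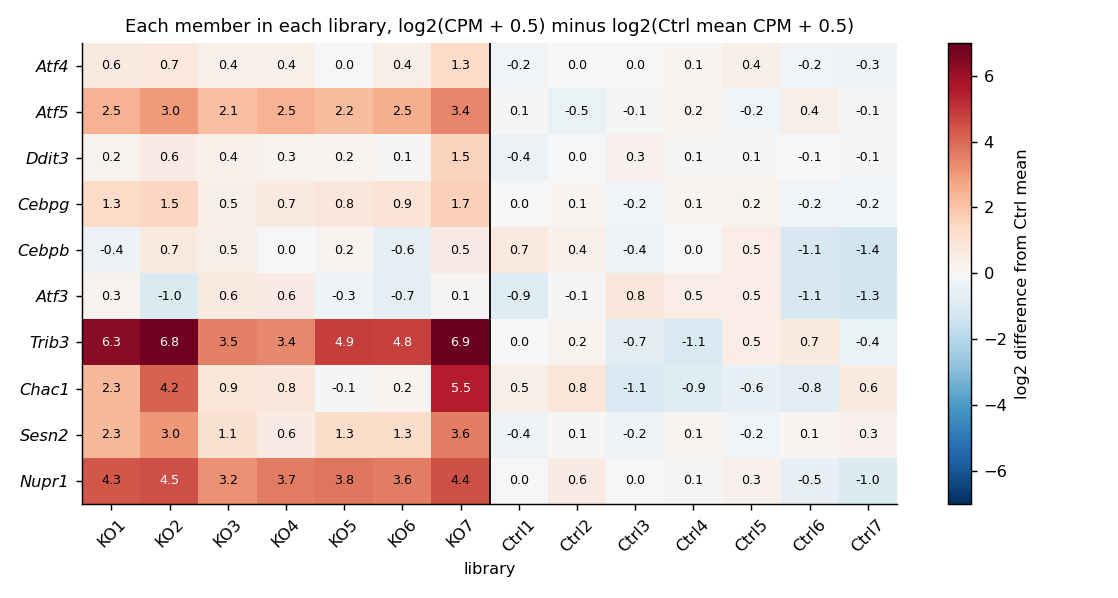
Each gene (rows) in each library (columns, KO left of Ctrl), as log2(CPM + 0.5) minus log2(mean Ctrl CPM + 0.5); red is above and blue below the Ctrl mean. KO1, KO2 and KO7 hold the strongest red for Trib3, Chac1, Sesn2 and Cebpg. Among the genes called higher, all but Chac1 lie above the Ctrl mean in all 7 KO libraries.

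The KO libraries followed much the same order for most of the genes called higher. KO7 was the highest KO library for 7 of these 8 genes and KO2 for the other, Nupr1. Both were among the 3 highest KO libraries for all 8, and KO1 was for 6. KO4 and KO5 were among the 3 highest for 0 of the 8. The Ryr2 level was 371, 333 and 272 CPM in KO1, KO2 and KO7, and 225 CPM in KO4, the lowest. Across the KO libraries the correlations of the 10 genes with Ryr2 ran from -0.51 (Atf3) to 0.46 (Trib3), with adjusted exact permutation p-values of 0.57 or more. Without KO4 and KO7, the libraries farthest from the Ryr2 median, r was 0.75 for Cebpg, 0.74 for Trib3, 0.72 for Nupr1, 0.52 for Sesn2 and 0.46 for Atf4, where it had been 0.28, 0.46, 0.24, 0.26 and -0.11. For the other genes it lay between -0.62 (Cebpb) and 0.40 (Atf5) without them. These values rest on 5 libraries and were not tested.

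Levels relative to Atf4 were compared across the 7 KO libraries on the log scale, in a family of 23 relations chosen after the values were seen. Pearson's r with Atf4 was 0.94 for Chac1 (exact permutation p = 0.0012, adjusted p = 0.027), 0.92 for Atf5 (p = 0.0050, adjusted p = 0.040) and 0.86 for Sesn2 (p = 0.0052, adjusted p = 0.040). Spearman's rho was 0.86, 0.86 and 0.75, with exact permutation p of 0.024, 0.024 and 0.066, none of which passed after adjustment (0.18, 0.18 and 0.30). Without KO5 and KO7, the libraries farthest from the Atf4 median, r was 0.93, 0.80 and 0.99. For Cebpg r was 0.82 (adjusted exact permutation p = 0.056), and 0.97 without those libraries. For Ddit3 r was 0.90 (adjusted exact permutation p = 0.066), and 0.57 without those libraries. For Trib3 and Nupr1 r was 0.71 and 0.68 (adjusted exact permutation p = 0.18 and 0.21), and 0.97 and 0.94 without those libraries. For Atf3 and Cebpb r was -0.07 and 0.34 (adjusted exact permutation p = 0.96 and 0.77), and -0.66 and 0.25 without them. The values without KO5 and KO7 rest on 5 libraries and were not tested. No correlation was computed within the 5 KO libraries outside index 7 to 10.

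**Figure D4:**
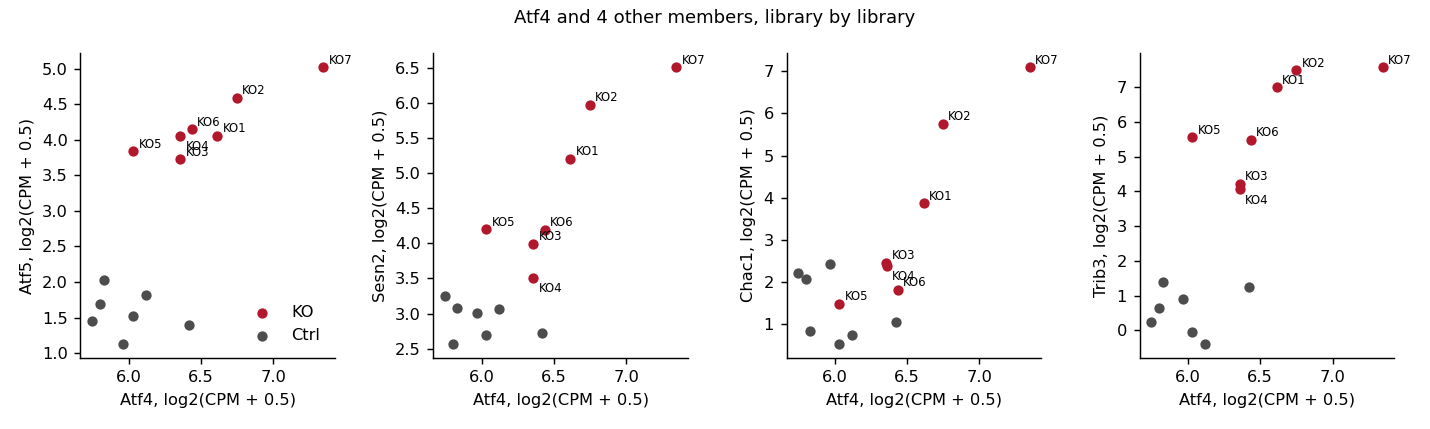
Atf4 (horizontal) against Atf5, Sesn2, Chac1 and Trib3 (vertical) in each library, all as log2(CPM + 0.5), with KO in red and named and Ctrl in grey. KO7 is at the upper right of each panel, and in the Chac1 panel KO5, KO6, KO3 and KO4 lie close to the Ctrl libraries.

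The genes most like a member across all 14 libraries, once the group means were removed, were found by correlation over 8053 genes. This is a description without a test, and the libraries share depth and preparation. Atf4 was most like Hmgn3 (r = 0.84), Trp53inp1 (0.83) and Ddit3 (0.83), and these values fell to 0.71, 0.63 and 0.61 without KO7. Ddit3 was most like Med7 (0.87), Ppp2r3c (0.85) and Eif3f (0.83), none of them called between the groups, and these values fell to between 0.59 and 0.64 without KO7. Trib3 was most like Slc7a1 (0.90), the cationic amino acid transporter, then Pomt1 (0.89) and Tspyl2 (0.87). Atf3 was most like Otud1 (0.96), Myl7 (0.86) and Myl4 (0.84). Myl7 and Myl4 are light chains of atrial myosin. The summed level of 5 atrial markers was 495 to 2062 CPM in KO and 271 to 960 CPM in Ctrl libraries. Nppa held most of those counts (92636 over all libraries) and was the only 1 of the 5 called higher. Myl7 (log2 -0.67), Sln (-0.75), Myl4 (-0.07) and Nr2f2 (0.27) did not pass, so the sum chiefly follows Nppa. The order depends on how the means were removed. With the mean of each group and library set removed instead, the nearest gene was Med7 for Atf4 (0.91), Myst1 for Ddit3 (0.94), Phip for Trib3 (0.90) and still Otud1 for Atf3 (0.94). Of the 12 genes named above, 4 stayed among the nearest 3 of their member.

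Compared per length of exon, as TPM (counts per exonic length, scaled to the same total in each library) computed over all genes of the table, the order of the genes differed between the groups. In KO libraries the means were 137 ± 54.3 TPM for Atf3, 120 ± 33.5 for Atf4, 90.7 ± 73.9 for Trib3, 59.4 ± 23.7 for Ddit3 and 51.5 ± 17.2 for Nupr1 (SD, n = 7). They were 40.7 ± 63.6 TPM for Chac1, 28.3 ± 22.4 for Sesn2, 25.2 ± 7.36 for Cebpb, 22.4 ± 6.56 for Cebpg and 20.1 ± 6.42 for Atf5. Each step in that order was smaller than the larger SD of the 2 genes it separates. In Ctrl libraries Atf3 (118 ± 67.6 TPM), Atf4 (70.0 ± 14.7), Ddit3 (35.5 ± 5.93) and Cebpb (19.5 ± 9.62) led, and Trib3 was last (1.03 ± 0.664, SD, n = 7). There the gaps from Atf4 to Ddit3, Ddit3 to Cebpb and Cebpb to Cebpg exceeded the larger SD of the pair. So did those from Cebpg to Sesn2, Sesn2 to Chac1 and Atf5 to Nupr1. The gaps from Atf3 to Atf4, Chac1 to Atf5 and Nupr1 to Trib3 did not. Trib3 made up 15.2% of the summed TPM of the 10 genes in KO libraries, against 0.389% in Ctrl libraries.

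Close relatives of the effectors moved less. Of 5 tested paralogues, 1 was higher and 1 lower. With 14.5% of all tested genes higher and 13.7% lower, these counts are no result about the paralogues as a group. Trib1 and Trib2, pseudokinases of the same family as Trib3, had log2 fold changes of 0.06 and 0.10 (adjusted p = 0.78 and 0.60). Sesn3 rose by 0.84 (adjusted p = 0.0044) at a low level, 4.49 ± 0.544 CPM in KO and 2.52 ± 0.784 CPM in Ctrl libraries (SD, n = 7 each). Sesn1 had -0.24 (adjusted p = 0.24). Chac2, which encodes a related glutathione-degrading enzyme, fell to 22.3 ± 4.54 CPM in KO libraries, against 30.9 ± 5.15 CPM in Ctrl libraries (log2 -0.46, adjusted p = 0.014).

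The metabolic targets of ATF4 rose in most cases. Of 21 tested genes for amino acid synthesis, folate metabolism and amino acid transport, 16 were higher and 1 lower, with a median log2 fold change of 3.98. The background for this list and for the tRNA genes below is 14.5% of all tested genes higher and 13.7% lower. The 4 with the smallest p were Phgdh, the first enzyme of serine synthesis (7.57), the folate enzymes Mthfd2 (6.47) and Aldh1l2 (1.82), and the transporter Slc7a5 (4.45). The lower one was the transaminase Got1 (-0.22), and Gpt2, Slc7a1, Slc38a2 and Slc1a5 did not pass. Slc7a3 and Slc7a11 had 0 counts in all Ctrl libraries; with 3 counts assumed for the whole Ctrl group, Slc7a3 was at least 294-fold higher and Slc7a11 at least 237.7-fold higher. Both bounds lie above the list's median, which is 3.98 with them as well. All 13 tested genes of tRNA charging and export were higher, with a median of 0.96. The 4 with the smallest p were Gars (1.25), Cars (1.49), Mars (1.05) and Eprs (0.98). Among KO libraries the coefficient of variation was 9.49% to 57.0% over the 16 higher metabolic targets and 4.56% to 20.04% over the 13 tRNA genes. It was 159% for Chac1, 84.8% for Trib3 and 83.4% for Sesn2, above both ranges. These ranges leave out listed targets that did not pass the filter on low counts. Among those, Cth had 119%, above Trib3 and Sesn2. The other 5 members called higher lay between 32.5% (Atf4) and 44.8% (Ddit3), within the range of the metabolic targets. From the lowest to the highest KO library, the higher metabolic targets ranged over 1.35-fold (Aldh1l2) to 7.56-fold (Slc1a4). Those 5 members ranged over 2.35-fold (Cebpg) to 2.75-fold (Ddit3), Sesn2 over 8.29-fold, Trib3 over 11.8-fold and Chac1 over 59.4-fold. The untested Cth ranged over 22.2-fold.

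Other effectors of the response that do not belong to metabolism were mixed. Of 24 tested, 12 were higher and 2 lower, with a median of 0.36. Over all tested genes 14.5% were higher and 13.7% lower, so only the higher count lay above its background. The 4 with the smallest p were the autophagy receptor Sqstm1 (0.91), the stress hormone Gdf15 (3.91), the rhomboid-like Rhbdd1 (1.002) and the mitochondrial protease Lonp1 (0.80). The lower ones were Vegfa (-0.49) and Klhdc8a (-0.43). Fgf21, a hormone with 0 counts in Ctrl libraries, was at least 175-fold higher on the same assumption of 3 counts. Its coefficient of variation among KO libraries was 95.5%, between those of Trib3 and Chac1.

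Upstream of ATF4, 4 of 19 tested genes were called. Over all tested genes 14.5% were higher and 13.7% lower, so this count is near or below the background and is no result about the list. Among these genes for eIF2 kinases, eIF2, its exchange factor and its phosphatases, 3 were higher and 1 lower, with a median of 0.06. Among the kinases, Eif2ak3, which encodes the ER kinase PERK, rose to 10.9 ± 2.02 CPM in KO libraries, against 6.69 ± 1.73 CPM in Ctrl libraries (SD, n = 7 each, log2 0.72, adjusted p = 0.0030). Eif2ak1 (0.05), Eif2ak2 (0.11) and Eif2ak4 (-0.05) did not pass. The other genes called were the eIF2 subunit Eif2s2 (0.58), the GCN2 activator Gcn1l1 (0.25) and the phosphatase catalytic subunit Ppp1cb (-0.21). Kinase activity depends on phosphorylation, which mRNA levels do not measure.

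The other branches of the unfolded protein response, run by ATF6 and XBP1, were higher in most of their tested genes. Of 25 tested genes 18 were higher and 0 lower, with a median of 0.35. Over all tested genes 14.5% were higher and 13.7% lower. The 7 not called included the chaperone genes Hspa5 (0.07), Hsp90b1 (0.03) and Calr (-0.08), and Pdia3 (0.02). The others were Sel1l (0.26), Syvn1 (0.18) and Derl2 (0.11). The 4 with the smallest p were P4hb (0.77), Derl1 (0.69), Dnajb9 (1.15) and Sdf2l1 (0.97). Within library index 7 to 10, 5 of these genes were called, all higher, where 5.84% of 11798 tested genes were called higher. The plot of log2 fold changes by list sets these groups side by side.

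**Figure D5:**
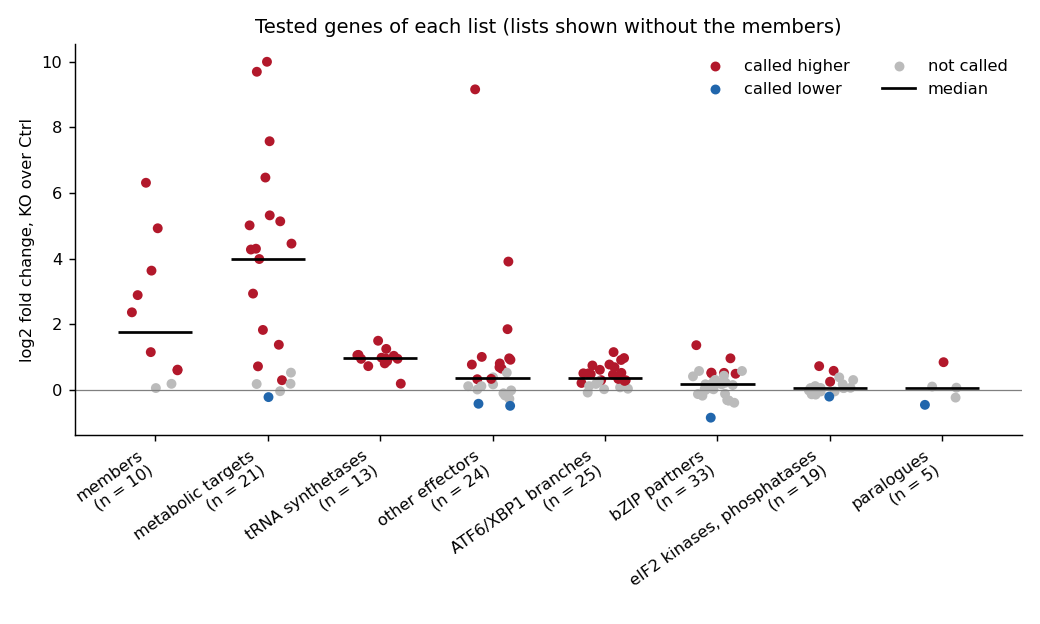
Log2 fold change, KO over Ctrl, of each tested gene (points) in the 10 member genes and in 7 lists shown without them, with the median as a black bar; red is called higher, blue called lower and grey not called. The medians run from 3.98 for the metabolic targets and 1.75 for the 10 genes to 0.06 for the upstream genes and for the paralogues. The 3 highest points are Slc7a3, Slc7a11 and Fgf21, with 0 counts in Ctrl, whose fitted values depend on the prior count.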

How the data were processed

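The deposited file holds raw read counts per gene for 14 libraries (7 KO, 7 Ctrl). Per the submitters' processing notes, STAR, featureCounts, DESeq2 and DESeq were used with build mm10; no source used here gives versions, annotation or strand setting. Libraries were made with SMART-Seq v4 and Nextera XT, per the labels' protocols, without strand or molecular identifiers, so bounds cover counting error only. No row lacked a gene name.

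Counts were tested with edgeR 4.0.16 (R 4.3.3): quasi-likelihood F test, filterByExpr, TMM, no covariates, two-sided, Benjamini-Hochberg adjustment over 11170 genes, threshold 0.05. SE is the log2 fold change divided by the square root of F. CPM use TMM-scaled library sizes; log2 CPM for likeness used a prior count of 2 and a minimum mean of 3. DESeq2 1.42.0 was an alternative, as were RLE scaling, no filter, a stricter filter (1 CPM in 7 libraries), leaving out each library, the replicate number as a block, and library sets. Both tools were checked on simulated counts. The biological coefficient of variation was 16.2%.

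The authors' deposited table gives a mean signal per gene (counts divided by size factors, per the file headers of DESeq2), log2 fold changes, a Wald score and p-values. Its log2 fold changes for the 10 genes differed by at most 0.0394 from those given here, and 8 of them passed its adjusted p. It was used for nothing else.

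Members, lists and the rule for named genes were chosen with earlier results of these data known. The rule named the members, up to 4 tested genes per list by p, those needed to name counts of 5 or fewer, the paralogues, the kinases, and 3 genes most like Atf4, Ddit3, Atf3 and Trib3. No protein sequences were used.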

Additional observations from a re-analysis of the deposited data

Results flagged for a closer look

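In 20 groups of 7 libraries (10 genes in KO and in Ctrl), the gap between the most extreme library and its neighbour was examined. It was set against the range of the group, on CPM without a log. Chance sets apart about 1 group in 20 if the values follow a normal distribution, which was not tested. In 3 of the 20 the gap reached Dixon's critical value of 0.568, each time in KO7. For Atf4 it only just did so, at 0.5682 of the range. The 20 groups come from the same libraries, so the 3 cases are not independent. Chac1 had 136 CPM in KO7 and 53.5 CPM in the next KO library. Ddit3 had 48.6 CPM in KO7 and 25.0 CPM in the next. Atf4 had 162 CPM in KO7 and 107 CPM in the next. KO7 also had the largest total count of the KO group (11064715) and the lowest summed macrophage markers of it (68.7 CPM). Whether depth or other properties of that library bear on these levels was not tested.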

How the results depend on the processing

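Under DESeq2, RLE scaling, no filter, the stricter filter, the term for library index 7 to 10 and the 10 libraries outside it, each of the 10 genes kept its direction and its side of the threshold, and the counts of called genes stayed within 1.5 times. The exception was index 7 to 10 on its own, with 2 libraries per group. There 1466 genes were called in place of 3149 and 5 members in place of 8; the log2 fold changes of Atf4 (-0.12), Atf3 (-0.37) and Cebpb (-0.24) turned sign, and Ddit3 (0.11) and Chac1 (1.27) lost their call. The genes called there numbered 9 in place of 14 among other effectors, 0 in place of 4 upstream, 5 in place of 18 in the ATF6 and XBP1 branches, 4 in place of 11 among bZIP factors with members counted, 0 in place of 2 paralogues and 7 in place of 3 immediate early genes. Fewer libraries enter that fit; any further cause was not tested. On leaving out 1 library at a time, Ddit3 ranged from 0.32 to 0.66, Atf3 from -0.082 to 0.24 and the members called from 7 to 8. The upstream list ranged from 2 (without Ctrl6) to 5 calls, the immediate early list from 2 to 4 and all genes from 2743 to 3173. With the replicate number as a block, 3770 genes and the same count of 8 members were called. The labels do not say that the numbers pair the libraries, so no pairing was assumed. The correlation of same-numbered deviations was between 0.15 and 0.53 for 6 of 7 numbers and 0.06 for number 6. Numbers 4 and 5 (both 0.53) lie within index 7 to 10 in both groups. Of the 7 KO libraries, 2 correlated best with their own number. These values do not settle whether the numbers pair the libraries. With any base at the last position of the response element, matches rose to 4.5% of genes in place of 1.08% and to 4 members in place of 1.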

Other observations

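Other bZIP factors and C/EBP proteins, with which the 6 factors can pair, were called in 7 of 33 cases. Of 33 tested factors other than members, 6 were higher and 1 lower, with a median log2 fold change of 0.17. Over all tested genes 14.5% were called higher and 13.7% lower, with a median of 0.01. The counts are near or below this background and are no result about the list. The lower one was Hlf, a clock-controlled factor of the PAR bZIP family, at 17.0 ± 3.70 CPM in KO and 30.5 ± 3.09 CPM in Ctrl libraries (SD, n = 7 each, log2 -0.85, edgeR adjusted p = 8.2e-05). The small Maf protein Mafg rose by 0.52 and the ER-anchored factor Creb3 by 0.49. Atf6 and Atf6b, precursors of the ER stress factors, rose by 0.52 and 0.50, and Jdp2 and Fosb by 0.96 and 1.36.

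Cth, the enzyme that makes cysteine from cystathionine, did not pass the filter on low counts and was singled out after its values were seen. It had 22.3, 14.96 and 6.31 CPM in KO7, KO2 and KO1, between 1.01 and 1.90 CPM in the other KO libraries, and between 0.325 and 1.84 CPM in Ctrl libraries. The libraries with the most Cth were those with the most Chac1.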
